A study of Mus musculus with 43 samples.

Results

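The 9 genes described here carry sulfate, citrate and dicarboxylates across tubule cell membranes, or activate sulfate and form it from sulfite. They were taken by symbol: Slc13a1, Slc13a2, Slc13a3, Slc13a4, Slc13a5, Slc26a1, Papss1, Papss2 and Suox. Each has 1 row among the 54532 genes of the deposited expression table. Expression had been measured by RNA-seq in proximal tubule, the first stretch of the nephron after the glomerulus, microdissected from kidneys of C57BL/6 mice (Taconic) aged 6 to 8 weeks. The groups used here are the female S1 (6 libraries), S2 (6 libraries) and S3 (7 libraries), which are successive parts of that tubule. The labels name no treatment and give 1 genotype, C57BL/6, for all, and each library held 2 to 5 tubules. The table gives 1 TPM value per gene and segment, with no value per library, so no difference below has a replicate check, an SD or a test, and the depth is unknown. TPM is scaled for transcript length and can be compared between genes. The sample titles carry a number that the labels do not explain, with 1 to 3 libraries to a number in each segment. S1 and S2 have 0 of these numbers in common, S1 and S3 have 2, and S2 and S3 have 2, so libraries may come from shared animals. Chromatin accessibility, for which the series has 24 samples, was not analysed here.

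Sulfate is filtered at the glomerulus and largely taken back in the proximal tubule. The apical sodium-sulfate cotransporter NaS1 (Slc13a1) brings it into the cell, and the basolateral anion exchanger SAT1 (Slc26a1) lets it out in exchange for bicarbonate or oxalate. Citrate and succinate are taken up from the tubule fluid by the apical cotransporter NaDC1 (Slc13a2), while the basolateral NaDC3 (Slc13a3) takes up dicarboxylates such as alpha-ketoglutarate from blood. Inside cells, the PAPS synthases (Papss1, Papss2) turn sulfate into PAPS, the sulfate donor of all sulfotransferases, and sulfite oxidase (Suox) makes sulfate from sulfite at the end of cysteine breakdown.

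The carriers were spread over the segments in 3 different patterns. Transcripts of the sulfate carriers Slc13a1 and Slc26a1 were high in S1 and near 1 to 2 TPM in S3. Slc13a2 was low in S1 and equal in S2 and S3, and Slc13a3 was high in S2 and at 1 to 2 TPM in both others. Papss2 was also lowest in S1, whereas Suox was highest there. In such bulk samples, fewer cells of a type and less RNA per cell cannot be told apart. Slc13a5 (ENSMUSG00000020805, chromosome 11, 72241990 to 72267295, GRCm38.p6), the sodium-citrate cotransporter best known from liver, had 0.1, 0.6 and 0.1 TPM in the order S1, S2, S3, an order kept below. It was the single member under 1 TPM in every segment, and the other 8 are among the 16053 genes compared. The plot of levels by segment shows the 3 patterns.

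**Figure D1:**
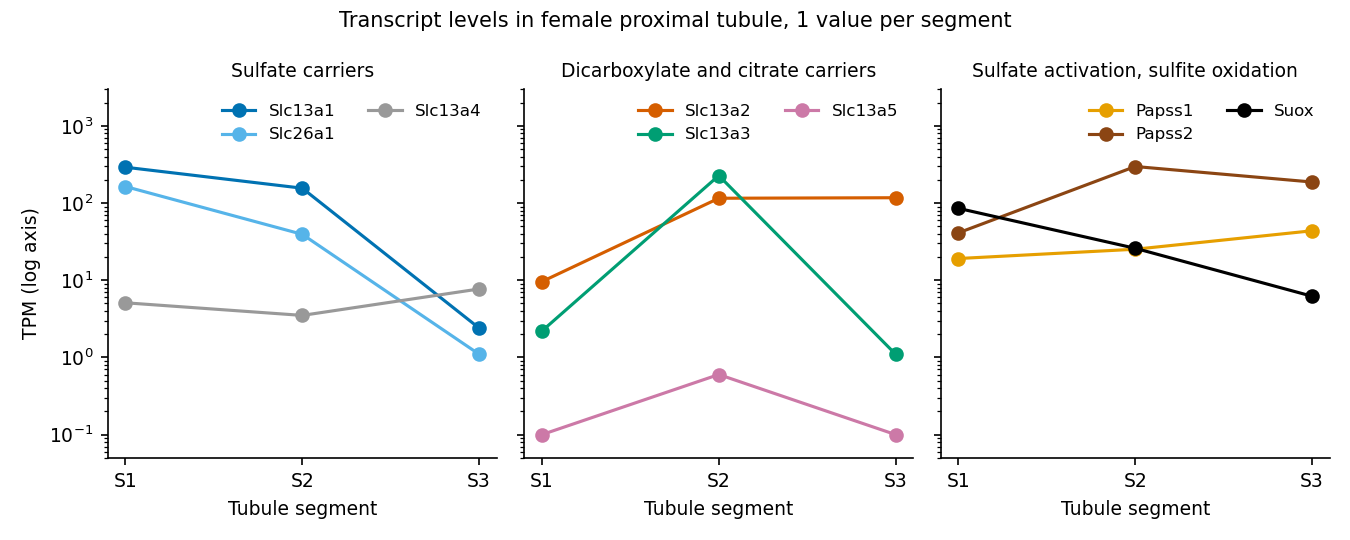
TPM on a log axis for the 9 genes in S1, S2 and S3 of female proximal tubule, 1 point per gene and segment, with lines joining the points of a gene. Slc13a1 and Slc26a1 drop from 291 and 164 TPM in S1 to 2.4 and 1.1 in S3, Slc13a3 stands at 227 TPM in S2 alone, and Slc13a2 and Papss2 are lowest in S1.

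The stretches before the transcription start are shown for the pair that was high in S1 (Slc26a1, Suox), the pair that was low there (Slc13a2, Papss2) and the S2 gene (Slc13a3). Slc13a1, also high in S1, had no entry. Each is the 250 bases before a RefSeq start in GRCm38.p6, read 5′ to 3′ on the strand of the gene. For Slc26a1 and Papss2 the first of 2 starts in the table is given. The Slc26a1 window lies inside the annotated span of the gene, and the Slc13a2 and Papss2 windows overlap the spans of their genes in part. The windows lie at chr5:108675366-108675615 (Slc26a1, minus strand), chr10:128673919-128674168 (Suox, minus), chr11:78422235-78422484 (Slc13a2, minus), chr19:32595465-32595714 (Papss2, plus) and chr2:165473198-165473447 (Slc13a3, minus). Capitals mark matches, on either strand, to the letters CAAAG (the core of sites for HNF4, a proximal tubule regulator), GTTAAT (from sites for HNF1, another) or TATAA (the TATA box).
Slc26a1: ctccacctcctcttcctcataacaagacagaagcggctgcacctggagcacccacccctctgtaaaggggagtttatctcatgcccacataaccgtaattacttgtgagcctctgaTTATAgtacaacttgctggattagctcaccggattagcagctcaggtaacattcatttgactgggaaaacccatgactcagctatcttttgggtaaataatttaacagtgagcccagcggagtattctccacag
Suox: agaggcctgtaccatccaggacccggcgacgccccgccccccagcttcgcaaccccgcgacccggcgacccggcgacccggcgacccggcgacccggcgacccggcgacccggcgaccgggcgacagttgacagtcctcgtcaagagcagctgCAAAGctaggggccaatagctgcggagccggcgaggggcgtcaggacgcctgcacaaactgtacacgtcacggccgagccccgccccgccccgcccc
Slc13a2: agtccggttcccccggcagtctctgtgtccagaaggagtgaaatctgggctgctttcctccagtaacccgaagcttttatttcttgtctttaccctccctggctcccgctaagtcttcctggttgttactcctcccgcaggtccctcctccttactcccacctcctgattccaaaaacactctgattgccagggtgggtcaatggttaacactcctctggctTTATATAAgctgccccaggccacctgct
Papss2: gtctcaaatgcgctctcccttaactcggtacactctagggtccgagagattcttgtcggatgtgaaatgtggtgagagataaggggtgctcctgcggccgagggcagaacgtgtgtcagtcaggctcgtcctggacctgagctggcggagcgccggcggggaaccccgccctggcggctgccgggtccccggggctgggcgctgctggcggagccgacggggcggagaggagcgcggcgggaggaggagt
Slc13a3: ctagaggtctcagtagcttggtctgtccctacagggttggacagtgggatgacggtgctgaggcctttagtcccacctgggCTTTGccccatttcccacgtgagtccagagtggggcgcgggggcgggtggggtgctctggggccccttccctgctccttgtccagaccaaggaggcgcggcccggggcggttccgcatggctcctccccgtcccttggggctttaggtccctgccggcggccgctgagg

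Within each pair, base composition differed at the starts shown. GC made up 46.8% of the Slc26a1 window and 74.4% of the Suox window, which holds 35 CpG pairs against 4. It made up 53.6% of the Slc13a2 window, with 5 CpG pairs, and 67.6% of the Papss2 window, with 24. At the other start, not shown, Papss2 had 43.2% GC and 1 CpG pair, which is below Slc13a2, and Slc26a1 had 46% and 1. Which start these cells use was not tested. The Slc13a3 window had 67.6% GC and 14 CpG pairs. The median over 32851 windows of the same length was 52.4% GC and 6 CpG pairs. TATAA was found in 22.8% of those windows, CAAAG in 48.6% and GTTAAT in 6.43%. In Slc13a2, TATAA matched on the plus strand from position -25 to -21 and, overlapping it, on the minus strand from -28 to -24, counting back from -1 just before the start. In Slc26a1 it matched from -134 to -130. CAAAG matched from -97 to -93 in Suox and from -169 to -165 in Slc13a3. GTTAAT was in none of the 12 windows of the 8 members with an entry. These are letter matches in a short window and not sites of binding.

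Slc13a1 and Slc26a1 had their highest level in S1 and their lowest in S3, and Slc13a4 was under 10 TPM throughout. Slc13a1 (ENSMUSG00000029700, chromosome 6, 24088283 to 24168119, GRCm38.p6) had 291, 156 and 2.4 TPM along S1, S2 and S3. It was thus 1.87-fold higher in S1 than in S2, which is under the 2-fold threshold on the log2(TPM + 1) scale used for calls here, and 121-fold higher in S1 than in S3. The main step lay between S2 and S3 (64.8-fold), and on the log2 scale S2 stood at 0.86 of the way from S3 to S1, against a median of 0.23 for all genes that differed 2-fold between the ends.

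Slc26a1 (ENSMUSG00000046959, chromosome 5, 108669878 to 108678380) had 164, 39.3 and 1.1 TPM. It was 4.16-fold higher in S1 than in S2, 35.7-fold higher in S2 than in S3 and 149-fold higher in S1 than in S3. The whole gene lies within the span of Idua, which codes for a lysosomal iduronidase. The protocol names no strand marking, so reads of the overlap could be assigned to either gene, which was not tested. Idua was listed at 3.7, 8.9 and 9.4 TPM. The ratio of Slc13a1 to Slc26a1 transcripts was 1.78, 3.96 and 2.18, so those of the apical carrier exceeded those of the basolateral one as listed. In S3 this rests on 2.4 against 1.1 TPM, and the overlap with Idua bears on all 3 ratios.

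Slc13a4 (ENSMUSG00000029843, chromosome 6, 35267953 to 35308126), a sulfate carrier known from placenta and brain, was at 5.1, 3.5 and 7.7 TPM. It differed less than 2-fold on the log2(TPM + 1) scale in each comparison, though for S2 against S3 the difference of -0.95 passed the threshold with a pseudocount of 0.1 (-1.12), with quantile normalization (-1.25) and, barely, with median-of-ratios scaling. The summed level of these 3 sulfate carriers came to 459, 198 and 11.2 TPM. In S3 this sum was mostly Slc13a4 (68.8%). It leaves out other carriers such as Slc26a2, described below, which was at 6.8 TPM in S3.

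Dicarboxylate carriers were low in S1. Slc13a2 (ENSMUSG00000001095, chromosome 11, 78397276 to 78422281) had 9.6, 115 and 117 TPM, which is 12.0-fold higher in S2 and 12.2-fold higher in S3 than in S1. S2 and S3 were alike, with a log2 difference of -0.02. Slc13a2os, a non-coding RNA whose annotated span overlaps the gene, was at 0.4, 4.5 and 3.6 TPM.

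Slc13a3 (ENSMUSG00000018459, chromosome 2, 165405295 to 165473197) had 2.2, 227 and 1.1 TPM, so that S2 held 98.6% of the sum over segments. It was 103-fold higher in S2 than in S1 and 206-fold higher than in S3. Its S2 minus S3 difference of 6.76 was at place 8 from the top among all 16053 genes compared. Both folds rest on levels of 1 to 2 TPM in the lower segment, given to 1 decimal. Endothelial, immune and stromal markers were also highest in S2. All 9 endothelial markers were at least 2-fold higher in S2 than in S1 and in S3, with summed levels of 71.9, 671 and 267 TPM and none at 0. All 9 immune markers were higher in S2 than in S1 and 8 of 9 higher than in S3 (57.6, 307 and 97.1 TPM, none at 0). Of 9 stromal markers 6 reached 1 TPM and 5 were higher in S2 than in each other segment (sums of 2.7, 23.1 and 2.6 TPM, none at 0). Their part in the S2 levels of Slc13a3 and the other genes was not tested.

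As a family, Slc13 transcripts changed their leading member in each segment. Their sum was 308, 502 and 128 TPM. Slc13a1 made up 94.5% of it in S1 and 1.87% in S3. Slc13a2 made up 3.12% in S1 and 91.2% in S3. In S2 the sum was divided among Slc13a3 (45.2%), Slc13a1 (31.0%) and Slc13a2 (23.0%). Transcripts of the apical NaDC1 gene, Slc13a2, were 4.36 times those of the basolateral NaDC3 gene, Slc13a3, in S1 and 106 times in S3. In S2 the order was turned, and Slc13a3 was at 1.97 times the level of Slc13a2.

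**Figure D2:**
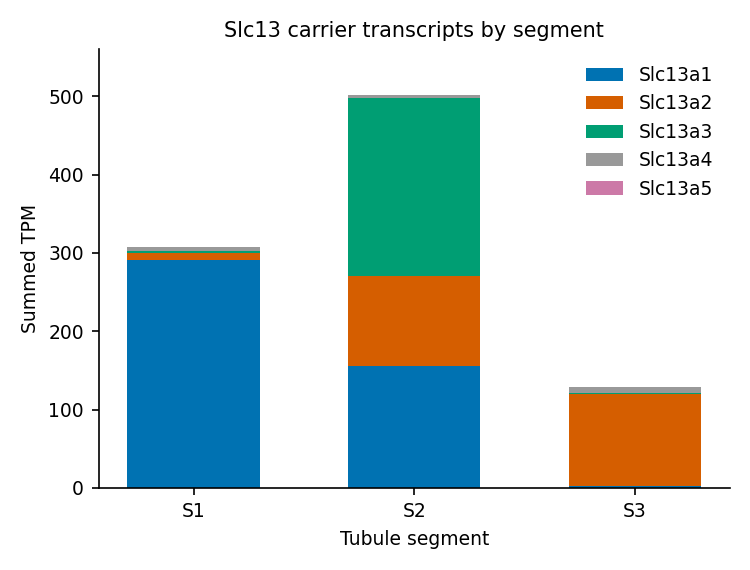
Stacked bars of TPM for the 5 Slc13 genes in S1, S2 and S3, each bar starting at 0. The bars reach 308, 502 and 128 TPM, with Slc13a1 filling most of S1, Slc13a2 most of S3, and Slc13a3, Slc13a1 and Slc13a2 sharing S2.

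The PAPS synthases were led by Papss2 in every segment. Papss2 (ENSMUSG00000024899, chromosome 19, 32595669 to 32667187) had 41.1, 297 and 187 TPM. It was 7.23-fold higher in S2 and 4.55-fold higher in S3 than in S1, and it stood at rank 437 among all genes of the table in S2. Between S2 and S3 it differed 1.59-fold. Papss1 (ENSMUSG00000028032, chromosome 3, 131564764 to 131643671) was at 19.1, 25.2 and 43.7 TPM, 2.29-fold higher in S3 than in S1. The ratio of Papss2 to Papss1 was 2.15, 11.8 and 4.28. The sum of both was 60.2, 322 and 231 TPM, so transcripts for making PAPS were fewest in the segment with the most sulfate carrier transcripts.

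Suox (ENSMUSG00000049858, chromosome 10, 128669887 to 128673918) had 85.3, 25.9 and 6.2 TPM. It was 3.29-fold higher in S1 than in S2, 4.18-fold higher in S2 than in S3 and 13.8-fold higher in S1 than in S3. The steps were near equal on the log2 scale (1.68 and 1.90), and S2 stood at 0.53 of the way from S3 to S1.

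Of the 8 members compared, Slc26a1 and Suox passed the 2-fold threshold with more in S1 than S2 (2 members, beside 6.62% of all genes), and Slc13a2, Slc13a3 and Papss2 lower (3 members, beside 17.7%). Against S3, Slc13a1, Slc26a1 and Suox were higher in S1 (3 members, 10.5% of all genes) and Slc13a2, Papss1 and Papss2 lower (3 members, 13.1%). Slc13a1, Slc13a3, Slc26a1 and Suox were higher in S2 than in S3 (4 members, 8.74%) and 0 were lower (2.24%). Counted by segment, 2 members exceeded both other segments in S1 (6.03% of all genes), 1 in S2 (5.22%) and 0 in S3 (2%). Slc13a2 and Papss2 were below both others in S1 (9.38%), and Slc13a1, Slc26a1 and Suox in S3 (2.84%). The median difference of the 8 was 0.03 between S1 and S2, 0.05 between S1 and S3 and 1.28 between S2 and S3 (upstream minus downstream), against -0.18, -0.01 and 0.12 over all genes. In the S1 contrasts the medians lay between small differences. These were Papss1 (-0.38) and Slc13a4 (0.44) against S2, and Slc13a4 (-0.51) and Slc13a3 (0.61) against S3. The other members, on both sides, differed more. The comparisons share columns, so they are not independent of each other. Over all genes, the share of higher calls among those called was 27.2% for S1 against S2 and 44.6% after quantile normalization, and 79.6% and 63.1% for S2 against S3.

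**Figure D3:**
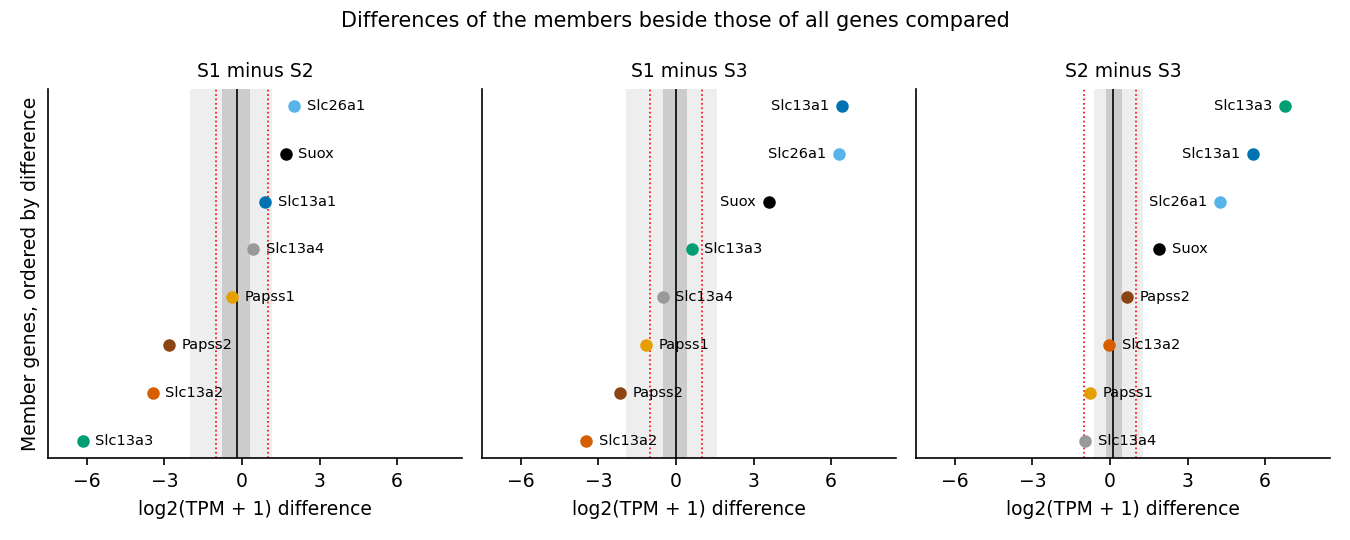
Differences on the log2(TPM + 1) scale for the 8 members compared, 1 panel per pair of segments, ordered within each panel. The light band spans the 5th to 95th percentile of all 16053 genes, the dark band the quartiles, the black line their median and the red dotted lines the 2-fold threshold; Slc13a3 lies at -6.15 for S1 minus S2 and 6.76 for S2 minus S3.

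For the 7 members that reach 10 TPM in a segment, which leaves out Slc13a4 and Slc13a5, the genes most like each were sought among 7258 genes of at least 10 TPM in their highest segment, by the Euclidean distance of centred log2(TPM + 1) over the 3 columns. For Slc13a1, 0 genes lay within 0.5, and the nearest was Mgst1, a microsomal glutathione transferase (180, 148 and 2.3 TPM, distance 0.51). Slc26a1 was in place 4 (0.98). For Slc26a1 the nearest were Enpp6 (175, 33.0 and 0.9 TPM, 0.25), G0s2 (0.48) and Lipa (0.48). Slc13a3 again had 0 genes within 0.5, with Cyp4a14, a fatty acid hydroxylase (1.0, 315 and 1.5 TPM, 0.86) and Slc22a6, the organic anion transporter OAT1 (6.0, 217 and 1.0 TPM, 0.98) next to it. Slc13a2 had 49 genes within 0.5. They were led by Cndp2, a cytosolic dipeptidase (64.3, 734 and 759 TPM, 0.05), and Hao2, a peroxisomal hydroxyacid oxidase (168, 1785 and 1890 TPM, 0.05). Papss2 had 48, led by Cavin3 (0.05), and Suox 33, led by Ildr2 (0.07) and Ppargc1a (0.16). Papss1 had 768, led by Ndufb8 (0.02), so its shallow gradient was a common one. With 3 points a profile has little room to differ, and these distances are descriptions.

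Genes on the route from cysteine to sulfate differed in both directions. Of 11 other genes of this route compared, 3 passed the threshold upward and 4 downward when S1 was set against S2, and 3 and 4 when it was set against S3. Over all genes compared, 6.62% passed upward and 17.7% downward against S2 (median -0.18), and 10.5% and 13.1% against S3 (median -0.01), and the list counts below are to be read beside these shares. Cbs, Tst, Sqor and Ado passed in neither comparison. Cdo1, the dioxygenase that begins cysteine oxidation, had 1.0, 121 and 289 TPM. Cth, which makes cysteine from cystathionine, was at 54.0, 288 and 426 TPM. Csad, which diverts cysteine sulfinate to taurine, was at 101, 462 and 705 TPM, and the sulfurtransferase gene Mpst at 5.8, 18.5 and 37.7. The 3 genes with more transcript in S1 act after Cdo1 on this route or in persulfide oxidation. Got1 and Got2, the aspartate aminotransferases, which also deaminate cysteine sulfinate, were at 150, 23.2 and 14.3 TPM and at 167, 68.9 and 45.2 TPM. Ethe1, the persulfide dioxygenase, which forms sulfite in mitochondria, was at 237, 51.9 and 34.0 TPM, 6.97-fold higher in S1 than in S3. The list's median was 0.11 for S1 minus S2 and -0.04 for S1 minus S3. Of 6 genes around the molybdenum cofactor, which sulfite oxidase needs, Mocs2 was 2.21-fold higher in S1 than in S3 (199, 128 and 89.8 TPM). Mocos, a sulfurase for other molybdenum enzymes, was 11.6-fold lower in S1 (2.1, 14.4 and 24.3 TPM).

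**Figure D4:**
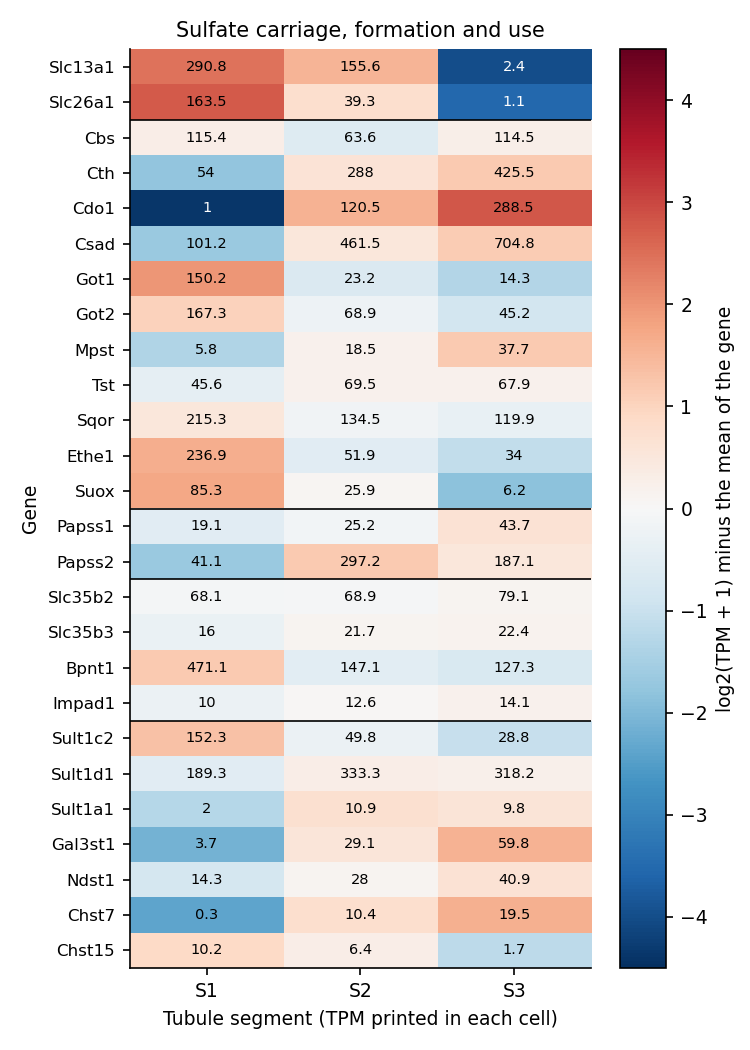
Heat map of sulfate carriers, enzymes from cysteine to sulfate, PAPS synthases, PAPS carriers with PAP phosphatases, and sulfotransferases (blocks from top to bottom) in S1, S2 and S3, with the TPM in each cell and colour for log2(TPM + 1) minus the mean of the gene. Slc13a1, Slc26a1, Ethe1 and Suox are red in S1, and Cdo1, Cth, Csad and Papss2 are blue there.

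Genes that use PAPS showed no single course. Of 21 cytosolic sulfotransferases, 5 reached 1 TPM in a segment. Sult1d1 was the most abundant in each segment (189, 333 and 318 TPM). Sult1c2 was 5.29-fold higher in S1 than in S3 (152, 49.8 and 28.8 TPM), and Sult1a1, the phenol sulfotransferase, was 4.90-fold lower (2.0, 10.9 and 9.8 TPM). Of 16 Golgi sulfotransferases compared, 9 passed the threshold downward and 0 upward when S1 was set against S2 (median -1.09), beside 17.7% and 6.62% of all genes. The count downward was 2 with a pseudocount of 5, which damps genes of few TPM, and 5 with a filter at 5 TPM. Set against S3, 1 passed upward and 7 downward (median -0.43, nearer 0 with a pseudocount of 5 or no filter and further below 0 with a pseudocount of 0.1 or the filter at 5 TPM). Gal3st1, which makes the kidney lipid sulfatide, was at 3.7, 29.1 and 59.8 TPM, 16.2-fold lower in S1 than in S3. Chst7 was at 0.3, 10.4 and 19.5 TPM and Ndst1, a heparan sulfate enzyme, at 14.3, 28.0 and 40.9. Chst15, which adds sulfate to chondroitin, went the other way with 10.2, 6.4 and 1.7 TPM. Endothelial, immune and stromal markers were also lower in S1 than S2 (9 of 9, 9 of 9 and 5 of 6 compared), and fewer of them were lower than in S3 (6, 1 and 0). Their part in the Golgi list was not tested. Genes at 1 TPM or more numbered 12174, 15121 and 12873 in the whole table, and 8, 16 and 13 in the Golgi list. Whether the lower number in S1 bears on the Golgi counts was also not tested. Slc35b2, which carries PAPS into the Golgi, was at 68.1, 68.9 and 79.1 TPM. Bpnt1, the phosphatase that clears the PAP left after sulfation, was the 1 gene of 5 in its list to pass the threshold, 3.70-fold higher in S1 than in S3 (471, 147 and 127 TPM).

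Among other Slc26 exchangers, Slc26a6, an apical exchanger of oxalate and chloride, was level at 22.9, 20.6 and 21.5 TPM. Slc26a11 was at 13.5, 7.0 and 6.9 TPM and Slc26a2, a sulfate carrier of cartilage, at 7.6, 4.8 and 6.8. In S1, Slc26a1 thus exceeded every other Slc26 gene measured, and in S3 it was below these 3. Only Slc26a4 of the 5 compared passed the threshold, at 1.2, 0.1 and 0.1 TPM, and with median-of-ratios scaling 0 passed, while with quantile normalization 2 passed upward for S1 against S2. In the list of oxalate and glyoxylate enzymes, Hao2 was 11.2-fold lower in S1 than in S3. Prodh2, hydroxyproline dehydrogenase, was at 359, 93.9 and 0.2 TPM, and Agxt2 was 2.39-fold higher in S1 than in S3 (70.6, 35.1 and 29.5 TPM).

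For the dicarboxylate carriers the related genes were those that use citrate and alpha-ketoglutarate, and the organic anion transporters of family Slc22. OAT1 and OAT3 exchange organic anions for alpha-ketoglutarate, which NaDC3 returns to the cell. Of 12 Slc22 genes compared, 9 passed the threshold downward and 0 upward from S2 to S1 (median -2.76), beside 17.7% and 6.62% of all genes. Set against S3, 3 had more and 7 had less in S1 (median -2.39), beside 10.5% and 13.1% of all genes. In S2, 4 exceeded S3 and 0 were below it, beside 8.74% and 2.24%. Slc22a6 had the S2 peak of Slc13a3. Slc22a8 (OAT3) was at 297, 349 and 0.7 TPM, and so was abundant in S1, where Slc13a3 had 2.2 TPM. Slc22a7 (0.7, 877 and 1155 TPM), Slc22a19 (0.8, 670 and 957) and Slc22a13 (0.5, 519.6 and 697.5) were low in S1, as Slc13a2 was. Slc22a6, Slc22a7, Slc22a8, Slc22a13, Slc22a19 and Slc22a30 also stand on the lists of segment markers. Several Slc22 genes have close copies, and reads may have been divided among them. Of 18 genes of citrate and dicarboxylate use, 4 passed upward and 1 downward with S1 set against S2, and 5 and 0 with S1 set against S3 (medians 0.48 and 0.44, beside -0.18 and -0.01 over all genes, of which 6.62% and 17.7%, and 10.5% and 13.1%, passed). Idh1, which makes alpha-ketoglutarate in the cytosol, was 43.9-fold higher in S1 than in S3 (1014, 218 and 23.1 TPM). Suclg2, a subunit of succinyl-CoA ligase, was 10.7-fold higher (195, 63.7 and 18.3 TPM), Gpt2 5.31-fold, Ogdh 3.30-fold and Sdha, a subunit of succinate dehydrogenase, 3.04-fold. Acly, which splits citrate in the cytosol, was 2.18-fold higher in S2 than S1 (28.3, 61.6 and 51.4 TPM). The mitochondrial dicarboxylate carrier Slc25a10 was level (444, 440 and 360 TPM).

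**Figure D5:**
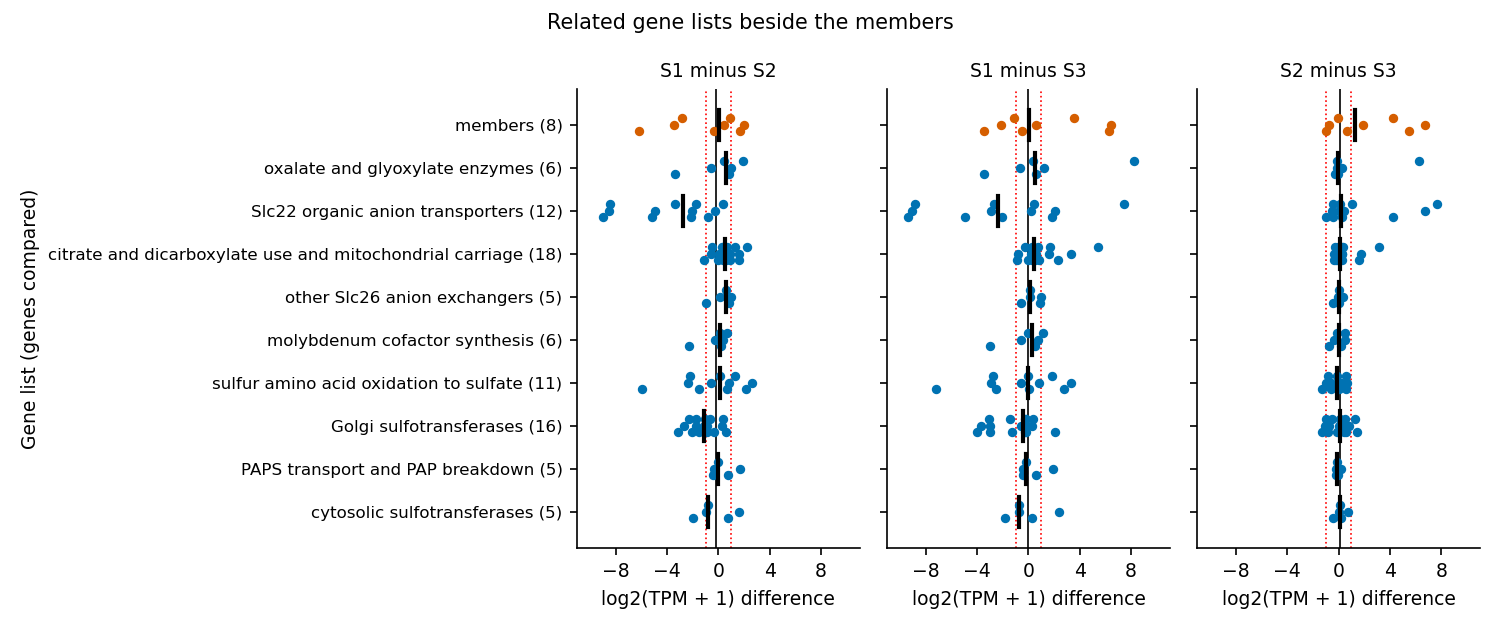
Differences on the log2(TPM + 1) scale for the genes of 9 related lists (blue) and the 8 members (orange), 1 panel per pair of segments; black ticks are list medians, the vertical black line is the median of all genes and red dotted lines mark 2-fold. The Slc22 list lies furthest left for S1 minus S2, with a median of -2.76, and the members spread from -6.15 to 2.03 in that panel.

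Markers of S1 followed the column name, while markers of S3 parted S3 from S1 but hardly from S2. All 9 S1 markers passed the 2-fold threshold upward in S1 against each other segment, and 11 of 11 S3 markers were higher in S3 than S1. Of these 11, 10 were also higher in S2 than in S1, and 1 was higher in S3 than in S2. Of 5 S2 markers, 4 exceeded S1 and 3 exceeded S3; Slc13a3 is itself 1 of them, so its S2 level is no separate evidence for the name. Of 7 markers of loop of Henle 5 reached 1 TPM. The sum of the list, 160, 333 and 333 TPM, was mostly Cldn10 (155, 292 and 284 TPM). Umod had 0.2, 21.1 and 29.1 TPM and Egf 3.3, 19 and 18.5. These 2 genes passed the threshold downward when S1 was set against S2 or S3, and 0 passed upward. Slc12a1 stayed at 0.4, 0.3 and 1.0 TPM. Whether loop of Henle tissue added to the S2 and S3 levels was not tested. In turn 1 of 10 collecting duct, 2 of 6 podocyte and 3 of 7 distal tubule markers reached 1 TPM in any segment. The highest of each list were Aqp3 (28.3, 5.2 and 0.1 TPM), Podxl (1.4, 13.4 and 3.1) and Wnk4 (25.1, 13.3 and 8.8). Which cells these transcripts came from was not tested.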

How the data were processed

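RNA was taken from 2 to 5 dissected tubules per library, made into cDNA with a SMARTer V4 kit and tagmented, per the labels' protocols. Gene expression was deposited by the authors as TPM, 1 value per gene and segment; the submitters' processing notes name mm10, STAR and RSEM among other tools. How libraries were combined and which annotation was used are not stated in the labels. Of 8 value columns, the 3 female segment columns were used; the names of the other 5 match no RNA-seq sample in the labels used here, and they were left out.

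The 16053 of 54532 genes that reached 1 TPM somewhere were compared on log2(TPM + 1), a pseudocount of 1, which understates folds of low genes. Higher or lower means a difference of at least 1 on that scale, that is 2-fold. Folds are plain TPM ratios, given where both values are at least 1. TPM keeps no depth, so no interval or detection limit was computed. With 1 value per segment, differences are given by size with no test. The code was tested on simulated data, made by putting known folds into genes of at least 10 TPM in copies of the deposited columns. This checks the calling step alone, and not folds of lower genes.

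All 9 members are named. List genes are named where they differ 2-fold and reach 10 TPM in the higher segment, up to 6 per list and contrast, or to give the highest level; Slc26a2, Slc26a4, Slc26a11, Slc35b2 and Slc25a10 fall outside this rule and were chosen after their values were seen. The 5 nearest genes were taken for likeness, leaving out Gm and Rik symbols, and the first are named. Members and the 19 lists (9 of related genes, 10 of markers) were chosen with earlier results of these data known. Symbols came from the table, and coordinates and promoters from RefSeq, GRCm38.p6. Python 3.11.15 and pandas 2.3.3 were used.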

Additional observations from a re-analysis of the deposited data

How the results depend on the processing

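The values are 1 per gene and segment, so leaving out replicates could not be done. No paired analysis was possible because the columns carry no replicate numbers. Across 9 alternatives run (2 pseudocounts, 2 filters, 3 scalings and 2 thresholds), 0 of 216 recomputed member differences changed sign past a threshold, and 205 kept their side of it. Much of this was fixed in advance. Filters and thresholds leave the difference of a member as it is, and a pseudocount cannot turn its sign, so only the 3 scalings could. The 2 filters could not move a member across the threshold either. With a threshold of 1.5-fold, 7 members differed between S2 and S3 and 6 exceeded both other segments; under the other 8 alternatives these counts, and those for S1 against S2 and S1 against S3 with both directions together, stayed within 1.5 times the reported ones. By direction, 1 member in place of 2 was higher in S1 than S2 at 4-fold, and 1 in place of 0 was lower in S2 than S3 with a pseudocount of 0.1, median-of-ratios scaling or quantile normalization, and 2 at 1.5-fold. Under the 3 scalings and 2 pseudocounts, Slc13a4 for S2 against S3 was the single member to cross the threshold. Quantile normalization shifted the median of all genes by 0.27 for S1 minus S2 and by -0.17 for S2 minus S3, and leaving out mitochondrially encoded genes, Gpx3 and Kap by -0.16 for S1 minus S2. A filter at 5 TPM shifted them by 0.20 and -0.11. With a measure of the largest single difference instead of distance, 4 or 5 of the 5 nearest genes were shared for each of the 7 members searched. What read depth limits is unknown; folds against levels of 1 to 2 TPM, as for Slc13a3, Slc26a1 and Slc13a1 in S3, rest on values given to 1 decimal.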
